A study of Arabidopsis thaliana with 42 samples.

Results

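The genes of glutamine synthetase and glutamate synthase in Arabidopsis thaliana were followed through 42 RNA sequencing libraries. They were taken by locus: GLN1;1 (AT5G37600), GLN1;2 (AT1G66200), GLN1;3 (AT3G17820), GLN1;4 (AT5G16570), GLN1;5 (AT1G48470), GLN2 (AT5G35630), GLT1 (AT5G53460), GLU1 (AT5G04140) and GLU2 (AT2G41220), which are 9 of the 37336 loci counted in every library. The study asked how plants respond to nitrate through the NLP (NIN-like protein) transcription factors and the nitrate transporter NRT1.1. Whole seedlings 7 days old, whose only nitrogen source had been ammonium succinate at 2.5 mM, were given 10 mM KCl (K) or 10 mM KNO3 (N) for 20 min. They were wild type, the septuple mutant nlp2,4,5,6,7,8,9 or chl1-5, a mutant of NRT1.1, with 3 libraries for each genotype and salt and several seedlings to a culture well. Mesophyll protoplasts, leaf cells freed of their walls, came from soil-grown Col-0 plants 3 to 4 weeks old and transiently expressed 1 of NLP1 to NLP9, with 2 libraries for each NLP and 2 for each of 3 controls, which the labels assign to NLP4 and 6, to NLP7, and to NLP1, 2, 3, 5, 8 and 9. The protoplasts carried all their own NLP genes as well, and the labels do not give the control plasmid or the time of expression. The labels give chl1-5 a growth protocol of its own and do not say whether it was grown beside the wild type, so the genotype and a separate experiment cannot be told apart.

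Glutamine synthetase joins ammonium to glutamate and makes glutamine. Glutamate synthase passes the amide nitrogen of glutamine to 2-oxoglutarate and returns glutamate, so that the pair forms the cycle by which plants take inorganic nitrogen into amino acids. The GLN1 genes encode the cytosolic glutamine synthetases, and GLN2 encodes the plastid enzyme, which in leaves also recaptures the ammonium released by photorespiration. GLU1 and GLU2 encode glutamate synthases that draw electrons from ferredoxin, GLU1 being the main form in leaves, and GLT1 encodes the form that uses NADH. Nitrate is reduced to nitrite by NIA1 and NIA2 and to ammonium by NIR1, which places the 9 genes directly downstream of nitrate reduction.

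The 300 bases before the annotated gene start are shown for GLN2 and GLU1, whose transcripts were higher in most protoplast groups expressing an NLP once the libraries at odds with their labels were left out. The sequences come from the RefSeq assembly TAIR10.1, are read 5′ to 3′ along the gene's strand, and hold in capitals each match, on either strand, to TGNCNNTT, a loose form of the core of the nitrate-responsive element that NLPs bind.
GLN2, chr5:13830129-13830428, plus strand: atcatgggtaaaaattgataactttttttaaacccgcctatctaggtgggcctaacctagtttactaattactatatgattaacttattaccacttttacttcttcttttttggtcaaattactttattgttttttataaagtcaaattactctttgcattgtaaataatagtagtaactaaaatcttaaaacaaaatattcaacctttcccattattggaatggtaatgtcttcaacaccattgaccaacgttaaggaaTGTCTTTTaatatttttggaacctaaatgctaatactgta
GLU1, chr5:1129485-1129784, plus strand: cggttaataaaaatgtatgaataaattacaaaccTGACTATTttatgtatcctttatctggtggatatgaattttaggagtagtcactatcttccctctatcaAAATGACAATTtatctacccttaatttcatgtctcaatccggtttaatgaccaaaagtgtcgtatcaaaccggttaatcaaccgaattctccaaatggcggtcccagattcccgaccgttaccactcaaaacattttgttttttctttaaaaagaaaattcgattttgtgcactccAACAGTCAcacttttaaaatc
In this window GLU1 held 4 matches, a pair of which overlap, and GLN2 held 1. GLU2 held 3 matches, GLN1;4 held 2 and the other GLN1 genes held 0. The motif is short, and 48.6% of 27443 protein-coding genes held it in a window of the same length. The longer motif TGNCNNTTNNNNNNNNNNAAG, which adds the second arm of the element, was found in 1.3% of the 27443, and among the 8 genes described here in GLU1 alone, at chr5:1129575-1129595 on the minus strand, 210 bases before the gene start: TGtCatTTtgatagagggAAG, with the letters the motif fixes in capitals. These matches describe the letters, and binding was not measured.

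The genes lie on 4 chromosomes in the same assembly. GLN1;1 spans chr5:14933286-14935885 on the minus strand, GLN1;2 chr1:24655115-24657703 on the minus strand and GLN1;3 chr3:6097201-6099595 on the plus strand. GLN1;4 spans chr5:5421589-5424749 on the minus strand, GLN1;5 chr1:17913711-17916101 on the plus strand and GLN2 chr5:13830429-13833542 on the plus strand. GLT1 is the longest, with 7625 exon bases in chr5:21700187-21710296. GLU1 holds 5495 exon bases in chr5:1129785-1138488 and GLU2 holds 5733 in chr2:17177539-17188836, all 3 on the plus strand. Counts cover whole genes, so exons and untranslated parts are not separated.

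Total gene counts were 5637780 to 27731400 per protoplast library and 18316800 to 59711100 per seedling library. Of the 18 protoplast libraries expressing an NLP, 14 had more transcripts of the NLP on the label than of any other NLP, and 4 did not. That labelled NLP4 replicate 1 held NLP1 transcripts instead (13202 against 29.5 CPM of NLP4, where CPM is a gene's count scaled to a common library total of 1e6), that labelled NLP5 replicate 2 held NLP8, that labelled NLP6 replicate 1 held NLP4 and that labelled NLP8 replicate 2 held NLP5. Protoplast tests below are therefore given with all libraries as labelled and without these 4. The control libraries for NLP1, 2, 3, 5, 8 and 9 differed by no more than sampling noise and were counted as 1 sample, which leaves 23 protoplast samples. In the mutants, NRT1.1 lay at 49.7 to 90.9 CPM in chl1-5 against 489 to 917 CPM in wild type, and no septuple mutant library held a count of NLP8, while the levels of NLP4, NLP6, NLP7 and NLP9 overlapped those of wild type and so do not check these alleles. In protoplasts the 8 mesophyll and photosynthesis markers were present in every sample, with a summed level of 889 to 3177 CPM against 29123 to 104957 CPM in seedlings. The medians of the epidermal marker PDF1, the guard cell markers MYB60 and GC1 and 5 of 6 root markers (SHR, EXP7, COBL9, PER64 and CASP1) were 0 CPM. Other markers on these lists were not at 0: root SCR lay at 7.25 to 69.1 CPM in every protoplast sample, vascular AHA3 at 3.65 to 94.7 CPM and guard cell FAMA at 0.13 to 3.14 CPM (median 1.66 CPM), and the other epidermal, guard cell and vascular markers had medians of 0.107 to 1.04 CPM. The labels do not say that replicates came from separate cultures or plants, so p-values measure the spread between these libraries. The sources used here do not state whether counting used strand, and GLT1 overlaps AT5G53470 by 127 bases on the same strand and GLU1 overlaps AT5G04150 by 79 bases on the opposite strand.

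Levels between genes were compared per kilobase of exon, on the CPM scale. In the 18 seedling libraries GLN1;2 had the highest median (813 CPM per kb, range 392 to 1730 CPM per kb), followed by GLN2 (592, range 448 to 750 CPM per kb), and these ranges overlapped. The order of these 2 was not the same in every genotype, since GLN1;2 supplied 43.4 to 56.1% of the summed glutamine synthetase level in the wild-type and chl1-5 libraries, above GLN2 in each, whereas in all 6 septuple mutant libraries GLN2 (36.3 to 40.1%) was above GLN1;2 (28.4 to 32.2%). GLN1;1 (301, range 180.2 to 425 CPM per kb) and GLN1;3 (170, range 104 to 233 CPM per kb) came next, also with overlapping ranges. GLU1 lay at 97.8 CPM per kb (range 80.9 to 125), GLT1 at 53.7 CPM per kb (range 33.9 to 94.8) and GLU2 at 25.5 CPM per kb (range 14.4 to 36.9), each overlapping its neighbour in the order. GLN1;4, at 9.11 CPM per kb (range 3.85 to 14.1), lay below all of these without overlap. GLN1;5 was close to 0, with 0 counts in 6 of the 18 libraries.

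In protoplasts the order differed. GLN1;1 had the highest median (308 CPM per kb, range 152 to 535 CPM per kb), and GLN1;2 (154, range 85.4 to 215 CPM per kb), GLN2 (122, range 39.4 to 248 CPM per kb), GLT1 (91.3, range 42.9 to 292 CPM per kb) and GLN1;3 (81.5, range 55.6 to 128 CPM per kb) overlapped one another. GLN1;1 supplied 46.8% of the summed glutamine synthetase level in the median protoplast sample (range 26.6 to 67.3%) and 14.5% in the median seedling library (range 12.4 to 19.7%). It led in all 5 control samples (50.2 to 59.8%), but GLN2 led in both NLP2 samples (33.1 and 33.7%) and in both libraries that held NLP5 (33.9 and 33.8%), and GLN1;2 led in both NLP9 samples (32.4 and 33.4%). The median share of GLN1;2 was 22.6% in protoplasts and 46.2% in seedlings, and the share of GLN2 was 22.8% and 31.4%. The 2 systems differ in tissue, age and growth, were fitted apart and were not tested against each other. GLN1;4 (median 1.45 CPM per kb) and GLN1;5 (11 counts at most, and 0 in 8 of 23 samples) were low in protoplasts as well. The coding sequences of GLN1;1 and GLN1;2 were 87.5% identical, with no shared run over 44 bases, and those of the other glutamine synthetase pairs 68.8 to 81.4%, so reads from the most alike stretches may have been assigned to either gene or dropped.

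**Figure D1:**
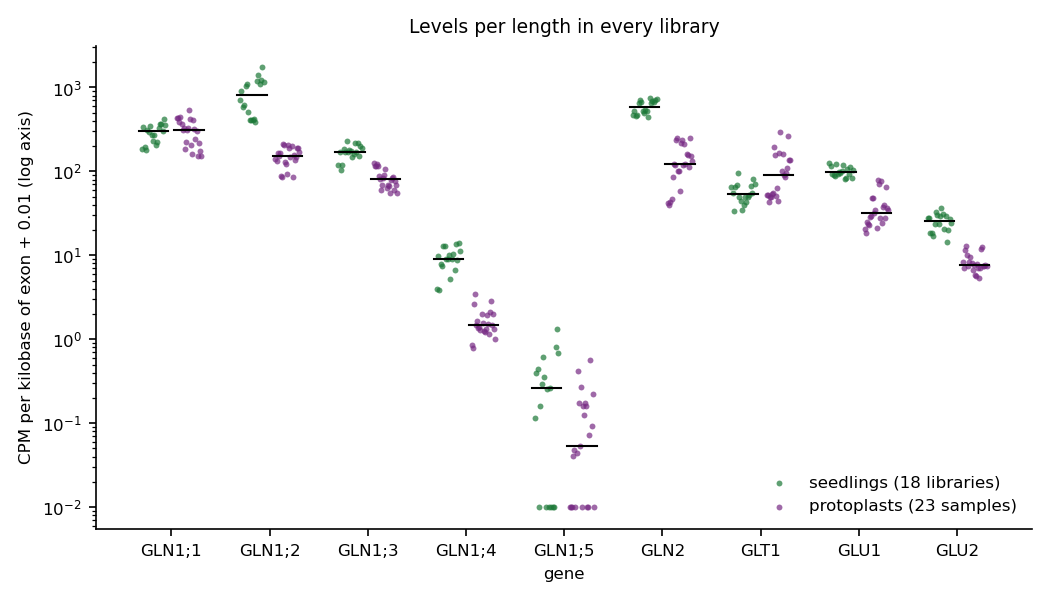
Level of each gene per kilobase of exon (CPM per kb, with 0.01 added for the log axis) in 18 seedling libraries and 23 protoplast samples, each point 1 library or sample and each line the median. Over all groups together GLN1;2 has the highest median in seedlings (813 CPM per kb) and GLN1;1 in protoplasts (308 CPM per kb). However, GLN2 is above GLN1;2 in the septuple mutant. GLN1;1 is not the highest glutamine synthetase with NLP2 and NLP9 or in the libraries that held NLP5. GLN1;5 lies near 0 in both.

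Whether 20 min of nitrate changed these transcripts was asked in each genotype. None of the 9 genes was called in wild type, the septuple mutant or chl1-5 by the edgeR quasi-likelihood test at an adjusted p under 0.05. Among all genes tested 0.725% were called in wild type, 0% in the septuple mutant (438 genes at an unadjusted p under 0.05) and 0.122% in chl1-5. At an unadjusted p under 0.05 GLT1 alone of the 9 passed in wild type, none in the septuple mutant and GLN1;5 alone in chl1-5, which is also the only one of the 9 that DESeq2 called in any genotype. For GLT1 in wild type p was 0.02 and the adjusted p 0.311. GLT1 lay at 495, 424 and 258 CPM in the K libraries of wild type and at 493, 522 and 723 CPM in the N libraries. The groups overlapped, and the log2 fold change was 0.56 ± 0.23 (SE; 95% interval 0.10 to 1.03). It was 0.05 ± 0.23 in the septuple mutant and 0.30 ± 0.23 in chl1-5, and the difference of the septuple mutant's response from that of wild type was -0.52 ± 0.32 (adjusted p = 0.596). Between these genotypes 0.278% of all genes were called for a difference in response, and among the members GLN1;4 stood nearest to the threshold, with a difference of -1.04 ± 0.50 (adjusted p = 0.442, edgeR). Between chl1-5 and wild type 0.00942% of all genes and no member were called, GLN1;5 being nearest (adjusted p = 0.515, edgeR).

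The log2 fold changes of the other genes with nitrate in wild type ran from -0.32 ± 0.23 for GLU2 to 0.69 ± 0.35 for GLN1;4, leaving aside GLN1;5. GLN2 stood at 980.3, 1109.5 and 971 CPM in K and at 979.8, 1362 and 1498 CPM in N, a log2 fold change of 0.33 ± 0.19 (95% interval -0.06 to 0.71). GLU1 stood at 686, 640.0 and 513 CPM in K and at 494, 478 and 676 CPM in N, a log2 fold change of -0.16 ± 0.19 (95% interval -0.56 to 0.24). The K and N libraries overlapped for both genes. In the same libraries all 4 genes of nitrate and nitrite reduction on the list rose, with NIR1, the nitrite reductase gene, at a log2 fold change of 2.75 ± 0.23 (adjusted p = 3.76e-08). Of 7 ferredoxin and reductase genes tested, FD3, a root-type ferredoxin, rose by 1.50 ± 0.22 (adjusted p = 0.000167) and RFNR2, which reduces it, by 1.26 ± 0.22 (adjusted p = 0.00257). ASN2, an asparagine synthetase that uses glutamine, rose by 1.00 ± 0.21 (adjusted p = 0.0127). None of the 3 glutamate dehydrogenases, 5 ammonium transporters tested, 5 aspartate aminotransferases, 6 genes of 2-oxoglutarate and dicarboxylate supply, 10 photorespiration genes tested or 3 glutamine sensing and partner genes was called. Of 8 mesophyll and photosynthesis markers CAB2 and LHCB2.1 rose, and their summed level was 37235 to 56843 CPM in K and 66519 to 96589.7 CPM in N.

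Between genotypes, members were called for the septuple mutant in N and for chl1-5 in K. GLN1;2, the cytosolic glutamine synthetase most abundant in these seedlings, was lower in the septuple mutant in N. It lay at 694, 706 and 662 CPM in the septuple mutant (687 ± 23.0 CPM, mean and SD, n = 3) and at 1039, 1776 and 1832.5 CPM in wild type. The groups did not overlap, and the log2 fold change was -1.17 ± 0.22 (adjusted p = 0.000863, edgeR). In K it lay at 854, 699.5 and 685 CPM in the septuple mutant against 1199, 1541 and 990.1 CPM in wild type, again without overlap, but the difference of -0.74 ± 0.22 did not pass (adjusted p = 0.0932, and 0.0259 with DESeq2). Its share of the summed glutamine synthetase level was 28.4 to 32.2% in the 6 septuple mutant libraries and 43.4 to 47.9% in the 6 wild-type libraries. The difference in nitrate response between these genotypes was -0.44 ± 0.31 (adjusted p = 0.668).

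GLT1 was also lower in the septuple mutant in N. Its libraries lay at 302, 379 and 326 CPM, all below the wild-type libraries at 493, 522 and 723 CPM, with a log2 fold change of -0.79 ± 0.23 (adjusted p = 0.0243). Without wild-type replicate 3 the change was -0.60 (adjusted p = 0.149), and with library totals alone it was -0.49 (adjusted p = 0.119). Leaving out septuple mutant replicate 1 or 3 also ended the call. In K the GLT1 libraries of both genotypes overlapped.

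GLU2 stood opposite to these genes. It lay at 169, 212 and 179 CPM in the septuple mutant in N, all above 107, 97.3 and 134 CPM in wild type, with a log2 fold change of 0.73 ± 0.23 (adjusted p = 0.0389). Leaving out wild-type replicate 1 or 2, or any 1 of the septuple mutant libraries, ended the call. These 3 of 9 genes called in N compare with 10.8% of all genes tested, and the difference between these shares was not tested. None of the 9 was called between the genotypes in K, where 2.25% of all genes were.

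GLN1;1, GLN1;3, GLN1;4, GLN2 and GLU1 were not called between the septuple mutant and wild type in either salt. GLN2 lay at 941 to 1126 CPM in the septuple mutant in N and at 979.8 to 1498 CPM in wild type, with overlapping libraries. GLU1 differed by -0.00 ± 0.19 in N, its ranges being 444 to 652 CPM in the mutant and 478 to 676 CPM in wild type. With library totals alone the sign turned for GLN1;1, GLN1;4, GLN2 and GLU1 in this comparison, where that scaling shifted the median of all genes by 0.30 on the log2 scale.

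The genes around the cycle differed between the same libraries. In the septuple mutant in N all 4 genes of nitrate and nitrite reduction fell, with NIR1 at a log2 fold change of -4.39 ± 0.24 (adjusted p = 4.41e-12). DIT1, the plastid carrier that brings in 2-oxoglutarate, changed by -0.81 ± 0.22 (adjusted p = 0.0189), and AMT1;2, an ammonium transporter, by -1.41 ± 0.26, also past the threshold. Of 7 ferredoxin and reductase genes 5 fell, and of 10 photorespiration genes 3 fell and 1, GGT1, rose. All 8 mesophyll and photosynthesis markers were lower too. Their summed level was 29123 to 36201 CPM in the septuple mutant in N and 66519 to 96589.7 CPM in wild type in N, while in K the ranges were 36162 to 53458 CPM and 37235 to 56843 CPM. Of 5 vascular markers 1, APL, fell, and of 6 root markers SHR fell and COBL9 rose. The part of these markers in the GLN1;2, GLT1 and GLU2 results was not tested, and fewer cells of a type cannot be told apart from less RNA per cell in whole seedlings.

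In chl1-5 in K, GLN1;2 was higher than in wild type. Its libraries lay at 2031, 2382 and 1837 CPM against 1199, 1541 and 990.1 CPM, without overlap, and the log2 fold change was 0.74 ± 0.22 (adjusted p = 0.0484). This is 1 of 9 genes where 5.48% of all genes were called. The call was lost with a scaling by library totals alone (0.40, adjusted p = 0.125), which shifted the median of all genes by -0.36, with the 2 groups fitted alone (adjusted p = 0.112), and without any 1 of the 6 libraries other than wild-type replicate 2 (adjusted p between 0.0867 and 0.211). GLN1;1, GLN1;3 and GLN2 had differences of 0.56 ± 0.24, 0.62 ± 0.21 and 0.52 ± 0.19 that did not pass (adjusted p = 0.136, 0.0713 and 0.0872). In N none of the 9 genes was called between chl1-5 and wild type, where 0.0612% of all genes were. In K, 6 of 8 mesophyll and photosynthesis markers were higher in chl1-5, their summed level being 79452 to 102137 CPM against 37235 to 56843 CPM, as were 2 of 4 epidermal markers (815 to 873 CPM against 451 to 632 CPM) and 1 of 6 root markers. The part of the markers in the GLN1;2 result was not tested.

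GLN1;5, a cytosolic form close to 0 elsewhere, gave 28, 36 and 24 counts in the N libraries of chl1-5 and 0 in each of their K libraries. Taken against a floor of 3 counts over the K group, its mean of 1.22 CPM in N was at least 26.2-fold higher. The edgeR test did not call it (adjusted p = 0.432), DESeq2 did (adjusted p = 0.0281), and the authors' deposited table gives an adjusted p of 0.0752. Wild type and septuple mutant libraries held 0 to 45 counts with either salt.

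**Figure D2:**
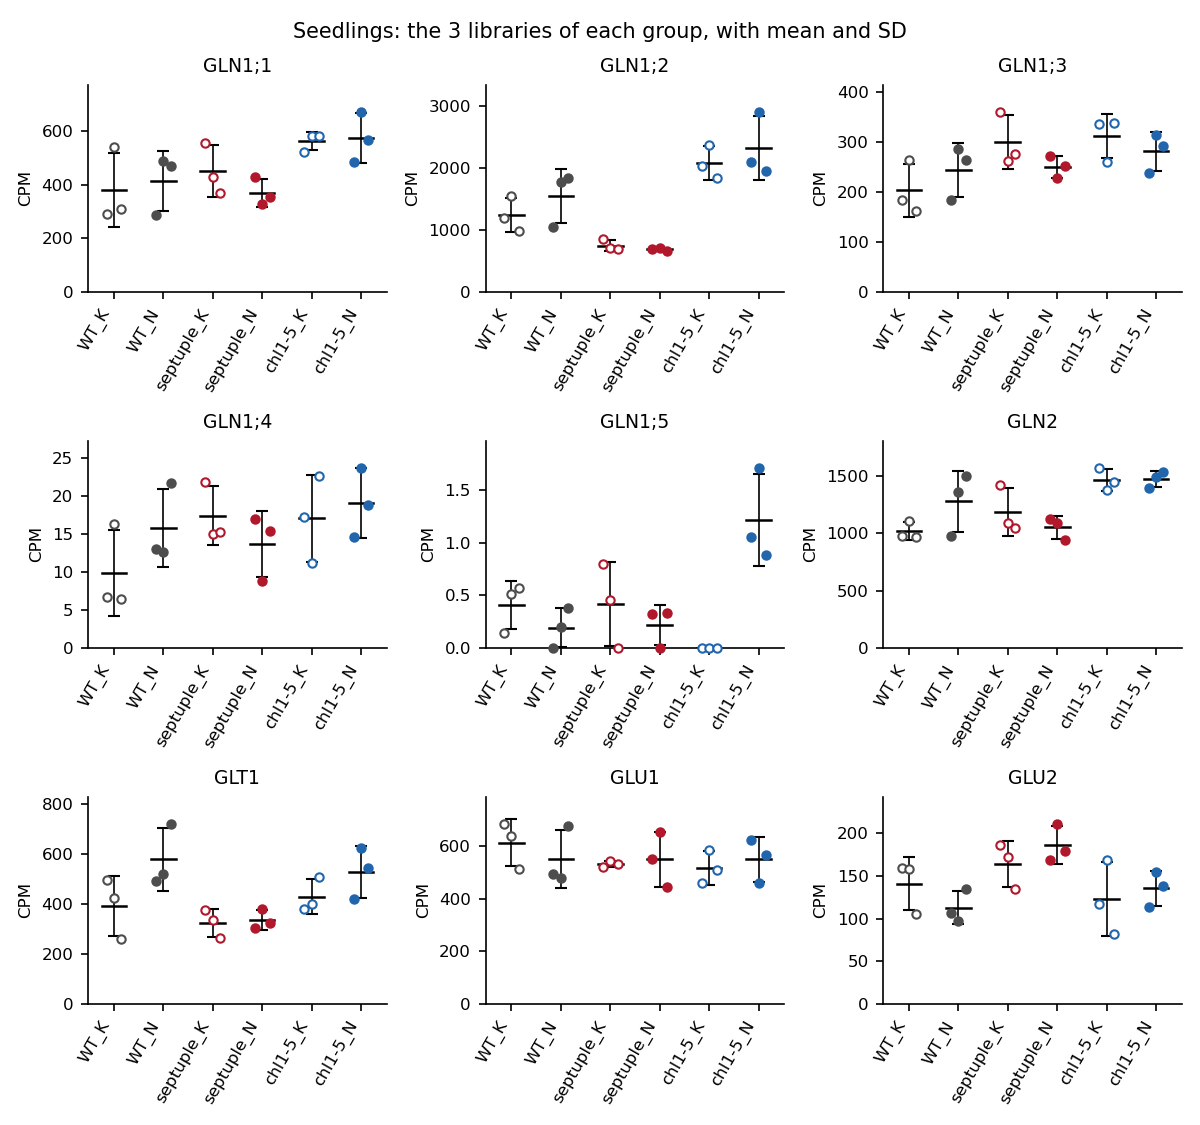
Level of each gene (CPM) in the 3 libraries of each seedling group, open points for K and filled points for N, with the mean and SD in black. GLN1;2 lies between 662 and 854 CPM in all septuple mutant libraries and between 1837 and 2916 CPM in all chl1-5 libraries.

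**Figure D3:**
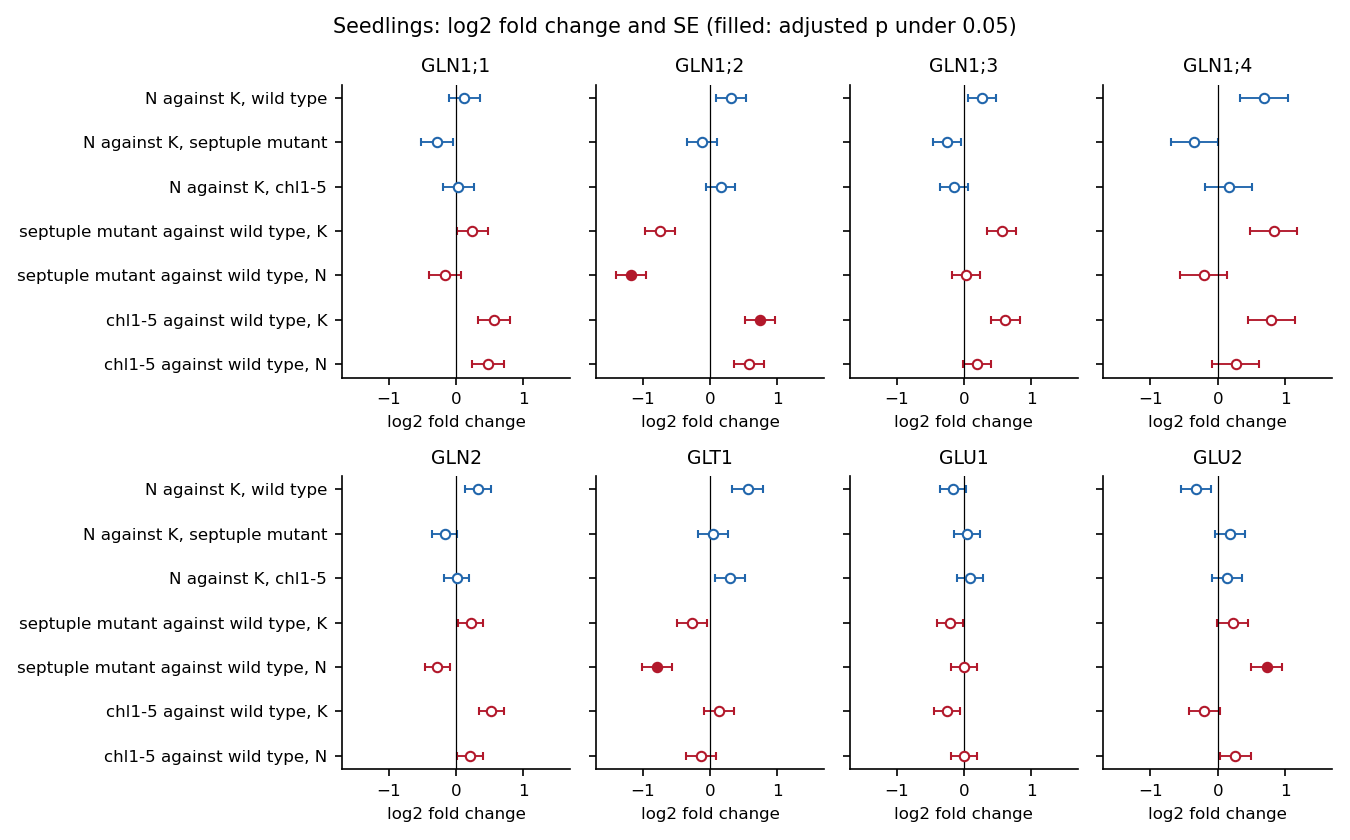
Log2 fold change and SE of 8 genes in 7 seedling comparisons, 3 for nitrate (blue) and 4 between genotypes (red), filled where the adjusted p is under 0.05. The filled points are GLN1;2 for chl1-5 in K (0.74) and, for the septuple mutant in N, GLN1;2 (-1.17), GLT1 (-0.79) and GLU2 (0.73).

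What each NLP did to these transcripts when expressed in leaf cells was asked in the protoplasts. With all libraries as labelled, cytosolic glutamine synthetase transcripts fell with several NLPs and the plastid form rose with a pair of them. GLN1;1 was lower with 4 of 9 NLPs and GLN1;3 with 5 of 9, GLN2 was higher with NLP6 and NLP7, and no other member was called. Between 0 and 2 of the 9 genes were called for any NLP. The share of all genes called was 1.58% for NLP1, 14.3% for NLP2, 2.79% for NLP3, 3.46% for NLP4, 10.6% for NLP5, 4.05% for NLP6, 9.63% for NLP7, 10.9% for NLP8 and 19.3% for NLP9. The NLPs that share a control share its libraries, so they are not independent of each other.

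Without the 4 libraries at odds with their labels, more members passed. GLN2 was higher with 8 of 9 NLPs, GLT1 with 7 and GLU1 with 7. GLN1;3 was lower with all 9, GLN1;1 with 6 and GLU2 with 5. GLN1;2 was higher with NLP2 and NLP4 and lower with NLP1, NLP3 and NLP6, and GLN1;4 and GLN1;5 were called with none. In that fit 5 groups have 1 sample each, namely NLP4, NLP5, NLP6, NLP8 and the control for NLP1, 2, 3, 5, 8 and 9, and their spread is assumed to be that of the other groups, which leave 7 residual degrees of freedom. NLP5 and NLP8 are thus 1 sample against 1 sample, and NLP1, NLP2, NLP3 and NLP9 are tested against a control of 1 sample in both fits. The p-values of these comparisons therefore rest on a spread taken from other groups. The common biological coefficient of variation was 0.0879 against 0.159 with all samples. The share of all genes called was 15.1% for NLP1, 31% for NLP2, 16.2% for NLP3, 24.2% for NLP4, 18.2% for NLP5, 8.29% for NLP6, 23.6% for NLP7, 24.8% for NLP8 and 33.1% for NLP9. The groups of NLP1, NLP2, NLP3, NLP7 and NLP9 are the same in both fits.

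GLN2, the plastid glutamine synthetase, lay at 88.8 and 82.8 CPM in the controls for NLP4 and 6, at 90.4 and 98.6 CPM in those for NLP7 and at 179.7 CPM in the control for the other NLPs. The NLP7 samples, at 336 and 329 CPM, were both above their controls. The difference was 1.81 ± 0.47 on the log2 scale (adjusted p = 0.0237) and, without the 4 libraries, 1.84 ± 0.09 (adjusted p = 4.43e-14). Leaving out either NLP7 sample or either of its controls ended the call in the fit of all samples, with fold changes of 1.73 to 1.85.
The library that held NLP4 and was labelled so stood at 458 CPM, and the library labelled NLP4 that held NLP1 at 124 CPM. NLP4 as labelled gave 1.77 ± 0.47 (adjusted p = 0.0527, and 0.013 with DESeq2) and, without the library at odds with its label, 2.40 ± 0.10 (adjusted p = 4.31e-15). NLP6 as labelled, with 260 CPM in the library that held NLP6 and 445 CPM in the one that held NLP4, gave 2.04 ± 0.48 (adjusted p = 0.0296), and without the latter 1.60 ± 0.10 (adjusted p = 6.83e-11). Leaving out either control or NLP6 replicate 1 ended the call in the fit of all samples, with fold changes of 1.60 to 2.08. The authors' deposited tables give GLN2 2.41 for NLP4 and 1.16 for NLP6, the latter not called (adjusted p = 0.152). The 1.16 is below both fits here and may come from another grouping of the libraries. For NLP8 they give 0.44, where the fit as labelled gave 1.07 ± 0.58 (adjusted p = 0.261, edgeR) and that without the 4 libraries 0.38 ± 0.12.
With NLP2 the samples stood at 494 and 522 CPM, with log2 fold changes of 1.50 ± 0.60, which did not pass, as labelled (adjusted p = 0.102) and of 1.47 ± 0.11 without the 4 libraries (adjusted p = 1.68e-10). NLP3, at 211 CPM in both samples, gave 0.22 ± 0.10 without the 4 libraries and was not called (adjusted p = 0.146). As a share of the summed glutamine synthetase level, GLN2 went from 5.51 to 11.6% over the 5 control samples to between 15.5 and 33.9% in the samples expressing an NLP, apart from the library labelled NLP4 that held NLP1 (7.43%).

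GLT1, the NADH-dependent glutamate synthase, lay at 327 to 401 CPM in all 5 control samples. The samples of NLP1 (415 and 425 CPM) and of NLP3 (392 and 483 CPM) stood next to these, and neither was called in either fit. The samples of NLP2 (1491 and 1205.5 CPM), NLP9 (1029 CPM in both) and NLP7 (650.1 and 730.1 CPM) were all above them. Both libraries that held NLP5 were high, at 2229 CPM under its own label and 2006 CPM under that of NLP8. Both that held NLP8 were lower, at 830.3 CPM under its own label and 780.0 CPM under that of NLP5. The libraries that held NLP4 stood at 1272 and 1231 CPM, the latter labelled NLP6.
With all samples as labelled no NLP was called for GLT1, the nearest being NLP5 with 1.98 ± 0.70 (unadjusted p = 0.0123, adjusted p = 0.0836), NLP2 with 1.82 ± 0.69 (adjusted p = 0.0887) and NLP8 with 1.90 ± 0.70 (adjusted p = 0.0939). DESeq2 called NLP5 (adjusted p = 0.0346) and NLP8 (adjusted p = 0.0459). The fold changes without the 4 libraries were 2.53 ± 0.16 for NLP5 (adjusted p = 1.37e-11), 1.79 ± 0.14 for NLP2 (adjusted p = 5.09e-10), 1.66 ± 0.12 for NLP4, 1.42 ± 0.14 for NLP9, 1.12 ± 0.15 for NLP8, 0.99 ± 0.11 for NLP7 and 0.80 ± 0.13 for NLP6, each called. With the 4 libraries left out, every sample of these NLPs was above every sample of its control, though NLP4, NLP5, NLP6 and NLP8 then had 1 sample each. The library labelled NLP4 that held NLP1 stood at 336 CPM, below its controls at 399 and 401 CPM. The authors' deposited tables give 2.48 for NLP5, 1.65 for NLP4 and 1.095 for NLP8, but 0.36 for NLP6, which they do not call. That 0.36 is below both the 0.80 without the 4 libraries and the 1.27 as labelled. It may come from another grouping of the libraries, so it is not a like measure of NLP6.

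GLU1, the main ferredoxin-dependent form in leaves, lay at 102 to 135 CPM in the controls. It reached 433 CPM in the library labelled NLP4 that held NLP4, 423 CPM in the one labelled NLP6 that held NLP4, and 389 and 359 CPM in those that held NLP5. NLP2 (263 and 262 CPM), NLP7 (209 and 221 CPM), NLP9 (199 and 189 CPM), NLP3 (176 and 188 CPM) and NLP1 (158 and 160.0 CPM) were above their controls in both samples. No NLP was called as labelled (0.31 to 1.36, adjusted p 0.175 or more). With the 4 libraries left out, the log2 fold change was 2.00 ± 0.09 for NLP4 (adjusted p = 3.14e-14), 1.59 ± 0.11 for NLP5 and 1.01 ± 0.10 for NLP2, down to 0.30 ± 0.10 for NLP1 (adjusted p = 0.0391). NLP6 (0.30 ± 0.10, adjusted p = 0.0725) and NLP8 (0.25 ± 0.11, adjusted p = 0.106) were not called. GLU2, the minor ferredoxin-dependent form, was called higher with no NLP. Its fold changes were -0.49 to -0.02 as labelled, with none called (lowest adjusted p = 0.0779), and NLP1, NLP3, NLP4, NLP8 and NLP9 were called lower without the 4 libraries (-0.37 to -0.49).

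GLN1;1, the cytosolic form most abundant in the control protoplasts, stood at 588 to 708 CPM in the controls. With NLP9 it stood at 279 and 241 CPM, a change of -1.18 ± 0.22 on the log2 scale (adjusted p = 0.00201), and with NLP2 at 296 and 359 CPM, a change of -0.84 ± 0.22 (adjusted p = 0.0207). With NLP5 and NLP8 as labelled it changed by -1.02 ± 0.22 (adjusted p = 0.00934) and -0.99 ± 0.22 (adjusted p = 0.0104). Here the libraries at odds with their labels stood close to their partners, at 255 CPM beside 326 CPM for NLP5 and at 349 CPM beside 244 CPM for NLP8. Without the 4 libraries the changes for NLP5 and NLP8 were -0.87 ± 0.15 (adjusted p = 0.000172) and -1.27 ± 0.15 (adjusted p = 8.84e-07), and NLP6 and NLP7 were called lower as well. With NLP1, NLP3 and NLP4 it was called in neither fit. In the fit of all samples the call was lost for NLP2 without its replicate 1 (-0.71, adjusted p = 0.122), for NLP5 without its replicate 2 (-0.85, adjusted p = 0.077) and for NLP8 without its replicate 1 (-0.75, adjusted p = 0.0868).

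GLN1;3, also a cytosolic form, stood at 178 to 198 CPM in the controls and at 86.4 to 164 CPM in all 18 samples expressing an NLP. It fell as labelled with NLP9 by 0.89 ± 0.23 on the log2 scale (adjusted p = 0.013), with NLP2 by 0.85 ± 0.23 (adjusted p = 0.0233), with NLP6 by 0.86 ± 0.20 (adjusted p = 0.0269), with NLP8 by 0.75 ± 0.23 (adjusted p = 0.0466) and with NLP5 by 0.76 ± 0.23 (adjusted p = 0.047). The calls for NLP5 and NLP8 were lost with size factors by the median-ratio method. Leaving out either NLP2 sample, replicate 1 of the control or either NLP5 sample for NLP5, either control or replicate 1 for NLP6, replicate 1 of the control or of NLP8 for NLP8, and NLP9 replicate 2 ended the respective call, with fold changes of -0.59 to -0.93. Without the 4 libraries all 9 were called lower, from -0.42 ± 0.11 for NLP3 (adjusted p = 0.0128) to -0.94 ± 0.12 for NLP4 (adjusted p = 2.21e-06).

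GLN1;2 went different ways. It stood at 147 and 146 CPM with NLP1 against 279 CPM in the control, and at 362 and 348 CPM with NLP2. As labelled no NLP was called. Leaving out the 4 libraries, it was lower with NLP1 (-0.95 ± 0.10, adjusted p = 5.27e-07), NLP6 (-0.66 ± 0.11, adjusted p = 0.000201) and NLP3 (-0.40 ± 0.10, adjusted p = 0.00774) and higher with NLP4 (0.59 ± 0.10, adjusted p = 0.000108) and NLP2 (0.32 ± 0.10, adjusted p = 0.0213). The library labelled NLP4 that held NLP1 (158 CPM) stood near the NLP1 samples for this gene, though its control is another, at 222 to 234 CPM. For other members it did not. GLN1;1 stood at 850 CPM in it against 488 to 515 CPM with NLP1, GLN2 at 124 against 247 to 256 CPM, and GLN1;3 at 164 against 127 to 137 CPM.

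The authors' deposited tables, at an adjusted p under 0.05, give GLN2 as higher with 8 of 9 NLPs, GLU1 with 8 and GLT1 with 6, and GLN1;3 as lower with 8, GLN1;1 with 7 and GLU2 with 5. The share of all genes called in those tables was not counted, so these counts have no background to stand beside. The tables come from the same libraries, and the sources used here do not say how libraries were assigned to groups in them. For NLP4, NLP5, NLP6 and NLP8 their GLN2 values differ from those as labelled here. GLN2 is 1.52 for NLP5 and 0.44 for NLP8, against 1.06 and 1.07 as labelled. Its CPM was 503 and 520 in the libraries that held NLP5, and 235 and 248 in those that held NLP8. For these NLPs the deposited values follow the NLP held, not the label. For NLP6 GLN2 is 1.16, below both fits here (1.60 and 2.04), and the grouping behind it was not tested.

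**Figure D4:**
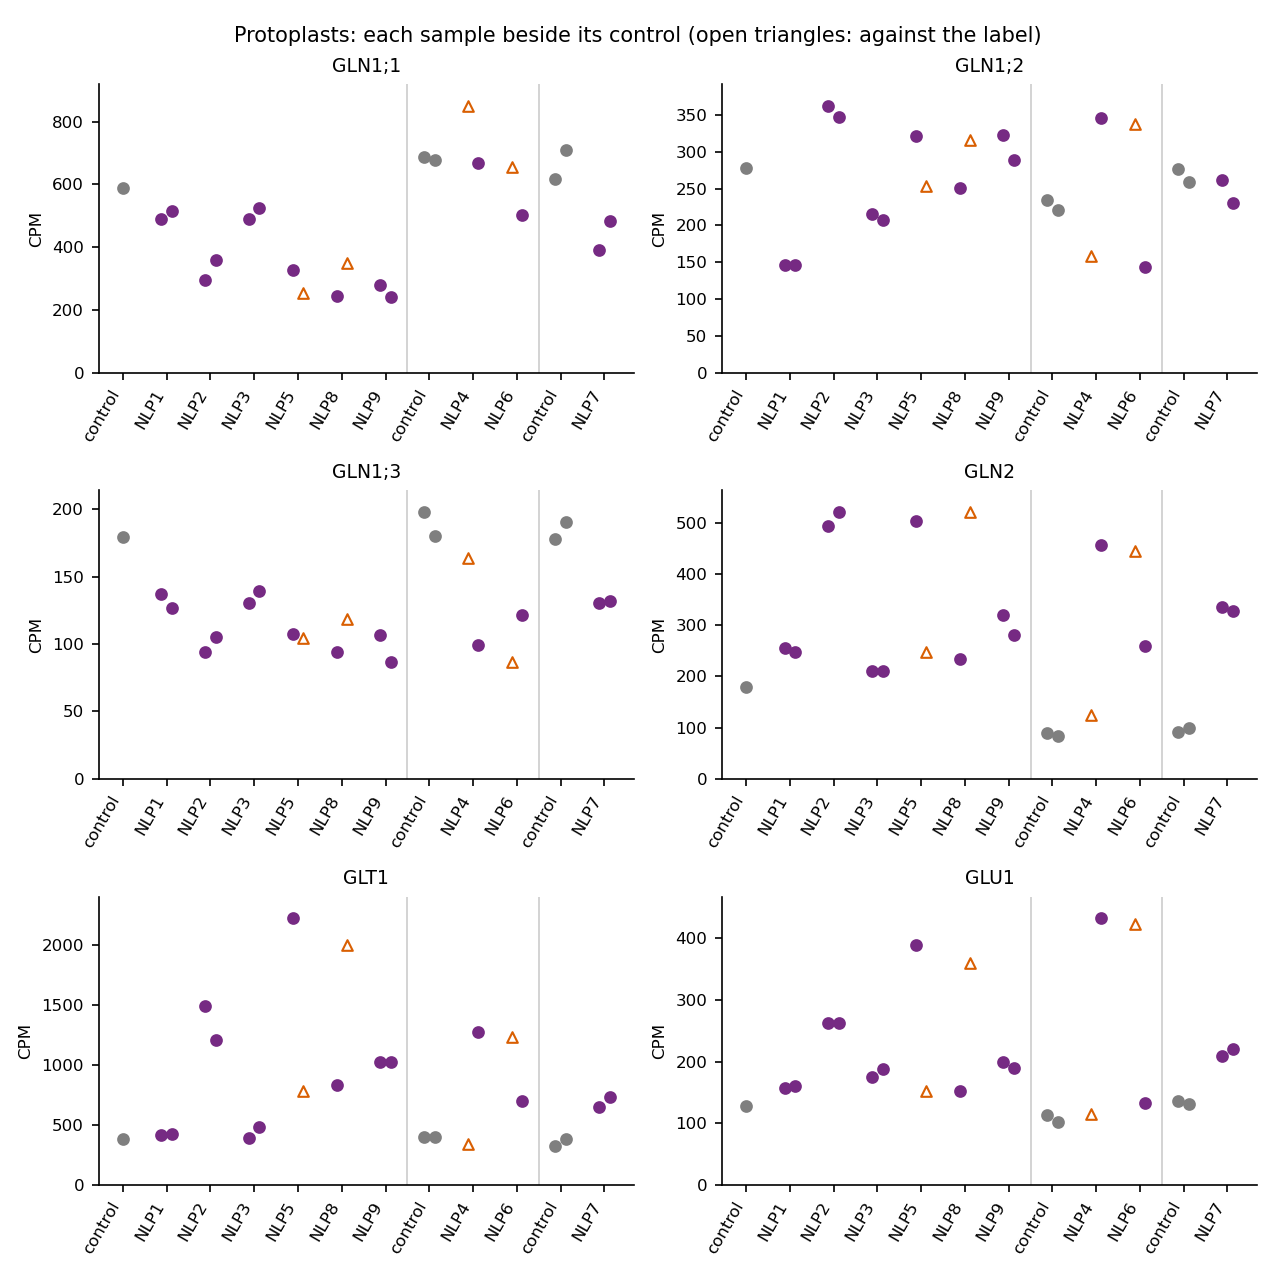
Level of 6 genes (CPM) in each protoplast sample, grouped with the control the labels name (grey), circles where the labelled NLP is the highest NLP transcript and open triangles for the 4 libraries where it is not. GLT1 reaches 2229 CPM in the library labelled and holding NLP5 and 2006 CPM in the triangle of NLP8, which held NLP5.

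**Figure D5:**
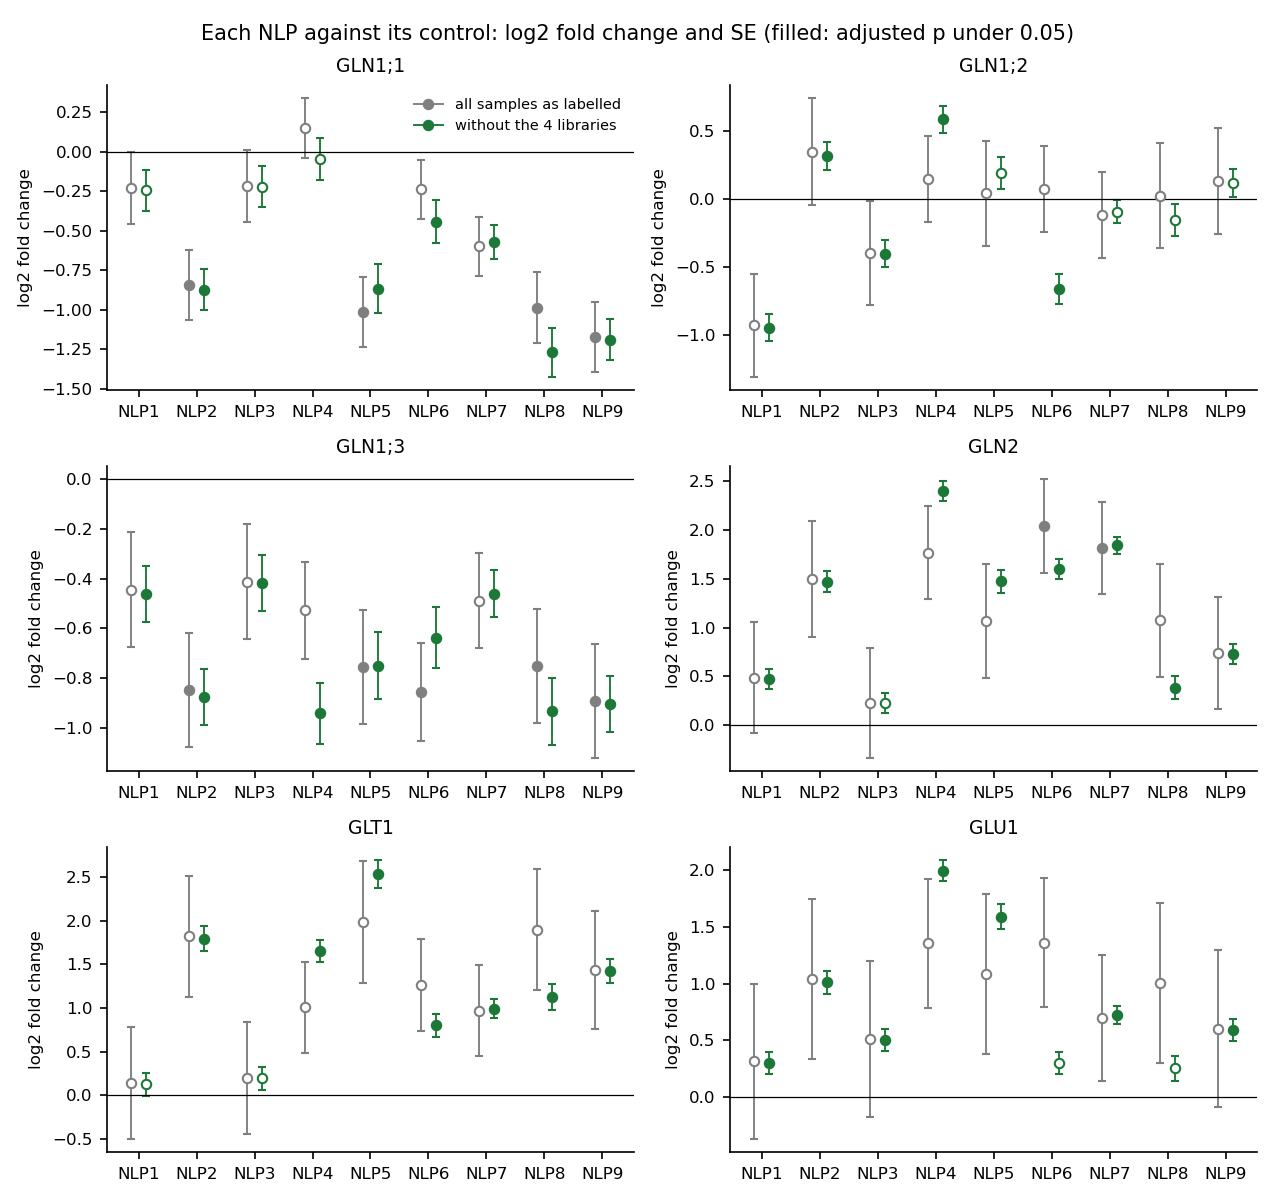
Log2 fold change and SE of 6 genes for each NLP against its control, with all samples as labelled (grey) and without the 4 libraries at odds with their labels (green), filled where the adjusted p is under 0.05. GLN1;3 lies below 0 with all 9 NLPs in both fits, and GLN2, GLT1 and GLU1 lie above 0.

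Other genes of the pathway moved in the same protoplasts as follows. NIR1 rose with 7 of 9 NLPs as labelled, by 2.48 to 3.68 on the log2 scale. Without the 4 libraries its log2 fold changes were 2.01 to 4.26 over all 9. Other genes of nitrate and nitrite reduction were lower with NLP1, NLP2, NLP3 and NLP8 in that fit. The median log2 fold change over that list ran from 0.39 with NLP3 to 2.56 with NLP5. FD3 rose with 6 as labelled (2.84 to 3.67) and with 9 without the 4 (1.47 to 3.65), and ASN2 with 5 (2.60 to 4.09) and with 7 (2.14 to 4.11). Among ferredoxins and reductases, a gene other than FD3 was lower with NLP1, NLP3, NLP4, NLP5 and NLP9 without the 4. DIT1 was called with no NLP as labelled, and without the 4 libraries its log2 fold changes were 0.38 to 2.15 over all 9. Other genes of 2-oxoglutarate and dicarboxylate supply were lower with most NLPs in that fit. The median log2 fold change over that list ran from -0.37 with NLP1 to 0.28 with NLP6. The glutamate dehydrogenase genes GDH1 and GDH2, whose enzyme releases ammonium from glutamate, fell. GDH1 fell with 8 NLPs in both fits, by 0.89 to 1.85 as labelled and by 0.90 to 1.87 without the 4, and GDH2 fell with 7 as labelled (-1.76 to -0.92) and with 9 without the 4 (-1.77 to -0.58). GDH3, at 4.27 CPM or less in every protoplast sample, was called with no NLP as labelled and called higher with NLP4 and NLP7 without the 4. GGT1, which makes glycine from glutamate in photorespiration, rose with 6 NLPs as labelled (1.11 to 1.67) and with 8 without the 4 (0.41 to 1.87). ASP1, a mitochondrial aspartate aminotransferase, fell with 6 as labelled (-0.72 to -0.54) and with 7 without the 4 (-0.74 to -0.57).
Markers of cell types moved as well. As labelled, 5 of 8 mesophyll and photosynthesis markers were called higher with NLP7, 3 with NLP3, 2 with NLP2, 2 with NLP5, 1 with NLP1 and 0 with the other NLPs. Without the 4 libraries the counts were 5 with NLP7, where CA1 was called lower, 4 with NLP3, 3 with NLP1, 3 with NLP2, 2 with NLP8, 2 with NLP9, 1 with NLP4 and 0 with NLP5 and NLP6. The summed mesophyll level was 1367 CPM in the library that held NLP6 and 1560.0 CPM in the other library of that label, against 1372 to 1460 CPM in their controls, and 1174 to 1189 CPM with NLP7 against 889 to 969 CPM. The vascular gene AHA3 was lower with 4 NLPs as labelled (-1.74 to -1.07) and with 7 without the 4 (-1.87 to -0.49). Without the 4 libraries the guard cell marker KAT1 was also called lower with NLP4 and NLP9 and higher with NLP7, and a further vascular marker was lower with NLP7. The root gene SCR rose with NLP6 and NLP7, by 2.06 and 3.10 as labelled and by 2.81 and 3.13 without the 4, where it was also lower with NLP1 (-0.68) and NLP3 (-0.92). The summed level of the 6 root markers was 63.1 CPM in the library that held NLP6 and 10.1 CPM in the other library of that label, against 8.55 to 9.51 CPM in their controls, and 60.7 to 69.2 CPM with NLP7 against 7.35 to 7.79 CPM. The part of these markers in the results for the 9 genes was not tested.

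Across the 18 seedling libraries each gene was set against the 13504 genes with a mean of at least 5 CPM, by Pearson's r of log2(CPM + 1). The libraries share genotypes, salts and scaling, so these values are descriptions. GLN1;3 was most like TIR1, an auxin receptor gene (r = 0.97), and GLN1;1 most like AT5G44020 (r = 0.95). GLN1;2 was most like AT2G34590 (r = 0.96), and GLN2 most like PIP3, an aquaporin gene (r = 0.94). GLT1 was most like TGA1, a bZIP transcription factor gene (r = 0.88), followed by AT4G38340, which is NLP3 (r = 0.86). GLU2 was most like SC3 (r = 0.90), GLN1;4 most like AT4G05150 (r = 0.87), and GLU1 most like RCD1 (r = 0.80). Within the family, GLN1;1 went with GLN2 (r = 0.85) and GLN1;3 (r = 0.82), and GLN1;3 with GLN1;4 (r = 0.83), while GLN1;2 and GLN1;3 had r = 0.29 and GLN1;2 and GLU2 r = -0.42.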

How the data were processed

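RNA was sequenced from 18 seedling and 24 protoplast libraries. Read counts per gene, whole numbers that were not normalized, were deposited by the authors as 1 file per library. Per the submitters' processing notes the build was TAIR10 and the tools were FastQC 0.11.5, TopHat2 2.1.1, featureCounts and HTSeq 0.6.1. No source used here gives the strand setting. Rows that name no gene were left out, and they show that 0.651 to 5.72% of seedling and 0.755 to 4.97% of protoplast reads fell in no gene, and 12.1 to 58.1% and 6.43 to 71.7% were not unique. The authors' deposited comparison tables hold a mean normalised count (signal), log2 fold changes with their SE, a test score and p-values, per the file headers, and were used only as values of the authors.

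Seedlings and protoplasts were fitted apart in edgeR 4.0.16 (R 4.3.3) with filterByExpr, TMM scaling and the quasi-likelihood F test, on 21229 and 19311 genes. Genes were called at a Benjamini-Hochberg adjusted p under 0.05 over all genes tested, and DESeq2 1.42.0 was an alternative. CPM values of members and lists carry the TMM scaling, those of the NLP and NRT1.1 label check do not. Errors of fold changes are SE. The control libraries for NLP1, 2, 3, 5, 8 and 9 had a chi-square of 1.01 per gene (p = 0.119), against 3.73 or more for other replicate pairs, and were summed. A floor of 3 counts is 0.0502 to 0.164 CPM in seedlings and 0.108 to 0.532 CPM in protoplasts, and covers counting error only. Gene lengths and sequences are from RefSeq TAIR10.1, matched by locus for all 9 genes. Scripts were tested on simulated data.

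The 9 genes and the lists were chosen with earlier results of these data known. Other genes are named as called members of those lists, or as one of the 3 genes most correlated with a member. The lists are nitrate and nitrite reduction, asparagine synthetases, glutamate dehydrogenases, ammonium transporters, aspartate aminotransferases, 2-oxoglutarate and dicarboxylate supply, ferredoxins and reductases, photorespiration, glutamine sensing and partners, and markers of mesophyll, vasculature, epidermis, guard cells and root. Deviations of same-numbered replicates from their group means were correlated, and in each comparison the lowest r was 0.083 or less. The numbers were therefore not used as pairs. For nitrate in the septuple mutant all 3 values were above 0 (0.026 to 0.346). With 2 libraries to a group both pairs give the same r, so the protoplasts hold no separate pairs. Alternatives were another scaling, no filter, DESeq2, a replicate block, the groups of a comparison alone, each library left out in turn, both control libraries kept, and the 4 libraries at odds with their labels left out. The sequence upstream of GLT1 is not reported here.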

Additional observations from a re-analysis of the deposited data

How the results depend on the processing

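The 15 called pairs of gene and comparison were looked up in the alternative fits, which gave 180 results, each 1 pair in 1 alternative. Of these 138 kept the call, 42 lost it and 0 reversed. A fit that covers several pairs is counted once for each, so the results are not independent. GLN1;2 in the septuple mutant in N kept it in every alternative run, with adjusted p of 1.53e-06 to 0.00848. Counts of the 9 genes called higher or lower changed as follows, with the cause not tested. The share of all genes called is given above only for the fits of all libraries and the fit without the 4 libraries. Counts under the other alternatives, also with single libraries left out, therefore have no share of all genes to stand beside. With DESeq2, nitrate in chl1-5 gave 1 higher, the septuple mutant in K 1 lower, chl1-5 in K 3 higher and 1 lower, NLP4 1 higher and 1 lower, NLP5 1 higher, NLP7 1 lower and NLP8 1 higher. With library totals alone, the septuple mutant gave 1 lower in K and 1 in N, chl1-5 in K 0 higher and 1 lower, NLP4 1 higher and NLP7 1 lower, and 12 values below the threshold changed sign, among them GLT1 for chl1-5 in K. That scaling shifted the median of all genes by -0.24 for nitrate in wild type, 0.14 in the septuple mutant, -0.15 for chl1-5 in N, 0.37 and 0.22 for the differences in response and -0.11 for NLP3. With median-ratio size factors, NLP5 and NLP8 gave 1 lower each. With no filter on low counts, chl1-5 in K gave 2 higher, NLP1 1 lower, NLP4 3 higher and 2 lower, NLP7 3 higher and 2 lower, and NLP2, NLP5, NLP6, NLP8 and NLP9 3 higher each. With the replicate block, chl1-5 in K gave 0 higher (GLN1;2 adjusted p = 0.0556), NLP2 2 higher, NLP3 1 lower, and NLP4, NLP5, NLP8 and NLP9 1 higher each, and the counts were the same with both control libraries kept and no block, apart from chl1-5. With fewer groups in the fit, chl1-5 in K gave 0 higher, NLP1 1 lower, NLP2 2 higher, NLP3 1 lower, NLP5 1 higher, NLP6 0 in either direction, NLP7 3 higher and 2 lower and NLP8 1 higher. Without the 4 libraries at odds with their labels, the counts higher and lower were 2 and 3 for NLP1, 1 and 3 for NLP3, 4 and 2 for NLP4, 2 and 3 for NLP6 and 3 and 2 for NLP7, with 4 higher for NLP2, 3 for NLP5, 2 for NLP8 and 3 for NLP9.

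Leaving out 1 library at a time gave 0 to 1 higher for the septuple mutant in K, 0 to 4 higher for chl1-5 in K, and 0 to 1 higher and 1 to 2 lower for the septuple mutant in N. In protoplasts it gave 0 to 2 lower for NLP2, 0 to 3 higher and 0 to 1 lower for NLP4, 0 to 1 higher and 0 to 2 lower for NLP5, 0 to 2 higher and 0 to 2 lower for NLP6, 0 higher for NLP7, 0 to 2 lower for NLP8 and 1 to 2 lower for NLP9. Where this leaves a group with 1 sample, that sample is assumed to vary like the other groups. At the depth of these libraries GLN1;5 rests on at most 45 counts.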
